A study of Mus musculus with 12 samples.

Results

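The longest transcripts counted in newborn mouse eyes were examined for mRNA, ribosome footprints and the ratio of footprints to mRNA. A transcript was included when its listed length was at least 3000, when it had at least 30 counts over the 6 mRNA libraries and when it had at least 30 counts over the 6 footprint libraries. Transcripts with the same 12 counts were kept once. Of 46419 transcripts with a listed length, 168 (0.362%) reached 3000, and these held 158 distinct sets of counts. The mRNA minimum removed 22 of them and the footprint minimum 31, with 20 removed by both, so that 125 long transcripts remained out of 32803 distinct transcripts with counts. The transcripts were thus chosen by listed length and by summed counts, and not by the difference between genotypes. The listed length is the second number beside each transcript in the deposited tables, and its unit is not given in the sources used here. That these transcripts are coding was therefore not checked. They are called here by listed length, because the tables used here do not pair the identifiers with genes.

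The study compared eyes of wild-type (WT) mice with eyes of mice lacking RNG140 (KO), both at postnatal day 0.5. Each genotype had 3 ribosome profiling libraries and 3 mRNA-seq libraries, 12 in all. No treatment, strain, sex, litter or form of the deleted allele is given in the labels, nor whether a library came from 1 animal or from a pool. P-values therefore measure the spread between these libraries, part of which may be technical. The expression of the targeted gene and of marker genes of eye tissues was not analysed here, so the genotype and the tissue rest on the labels. In whole eyes, fewer cells of a type and less RNA per cell cannot be told apart.

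RNG140, the product of Caprin2, is an RNA-binding protein found in cytoplasmic RNA granules, where mRNAs are held and their translation is controlled. Ribosome profiling digests RNA that is not covered by ribosomes and sequences the protected fragments, the footprints, so a transcript's footprint count follows both the amount of its mRNA and the number of ribosomes on it. The ratio of footprints to mRNA is used as a measure of translation efficiency. Very long mRNAs encode giant proteins such as cytoskeletal linkers, matrix proteins and muscle proteins, and a ribosome needs longer to pass through them than through short ones.

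The listed lengths ran from 3001 to 33458, with a median of 3954, against a median of 410 over all distinct transcripts. Of the 125, 65 were under 4000, 21 were at least 5000 and 2 were above 10000. The shortest included had lengths of 3001, 3004 and 3005, and the longest left out for length had 2998, 2990 and 2988. The lowest mRNA sums included were 34, 51 and 55 counts, against 29 in each of the 3 nearest left out. For footprints the lowest sums included were 31, 34 and 35, against 29, 29 and 28 just outside. The 125 are not 125 independent genes. Rows close together in the tables whose values moved together across libraries, which may be isoforms that share reads, formed 100 blocks, and 39 transcripts lay in the 14 blocks of more than 1. The largest block held 12 transcripts with lengths from 4377 to 4682.

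Total counts ran from 327847 to 5966639 in the footprint libraries and from 666464 to 1244104 in the mRNA libraries. The median count of a long transcript was between 57 and 284 in an mRNA library and between 29 and 83 in a footprint library. The WT libraries differed among themselves on these transcripts. In mRNA, WT library 3 was the lowest of the 3 WT libraries for 109 of the 125, and WT libraries 1 and 2 stood above it. In footprints, WT library 3 was the lowest for 113 and WT library 1 the highest for 93. Results that rest on these libraries are given with and without them.

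Long transcripts took a smaller part of the mRNA counts in the KO libraries than in the WT libraries, a description with no test. Of the counts on distinct transcripts, they held 3.96%, 3.56% and 2.28% in the WT mRNA libraries, a mean of 3.27% ± 0.88 (SD, n = 3). In the KO mRNA libraries they held 1.97%, 2.10% and 2.02%, a mean of 2.03% ± 0.06 (SD, n = 3). All KO values lay under all WT values, and WT library 3 lay closer to the KO libraries than to the other WT libraries. With WT library 3 as the only WT library, the difference shrank from -1.24 to -0.25 percentage points. In footprints the shares were 1.81%, 1.25% and 0.470% in WT (mean 1.18% ± 0.68, SD, n = 3) and 0.837%, 2.57% and 1.78% in KO (mean 1.73% ± 0.87, SD, n = 3). The footprint groups overlapped. The footprint difference of 0.55 percentage points became 0.87 when WT library 1 was left out and 0.19 when WT library 3 was. It became 0.99 when KO library 1 was left out and 0.13 when KO library 2 was.

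**Figure D1:**
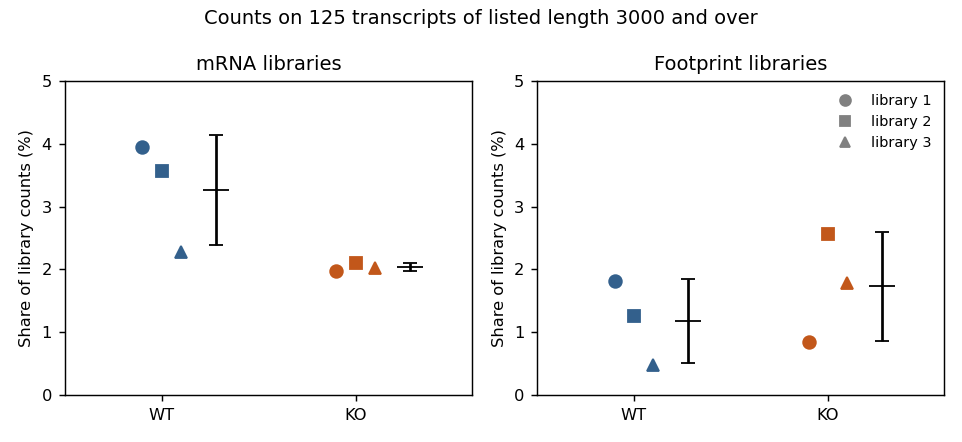
Share of library counts (%, vertical axis) on the 125 long transcripts in the mRNA libraries (left) and the footprint libraries (right), by genotype. Each point is 1 library, its shape the library number, and the bars are the mean and SD of 3 libraries. The KO mRNA libraries lie between 1.97% and 2.10%, under the lowest WT library at 2.28%, while the footprint groups overlap.

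The footprint share depended on few transcripts. The 3 with the most footprints, of lengths 3056, 3275 and 5647, held 17.3%, 31.7% and 42.6% of all footprints on long transcripts in WT, and 57.3%, 56.0% and 50.9% in KO. Without these 3, an exclusion chosen after their values were seen, the share was 1.5%, 0.855% and 0.270% in WT, against 0.358%, 1.13% and 0.872% in KO. The difference of KO minus WT then turned from 0.55 to -0.09 percentage points.

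In mRNA, 121 of the 125 passed the low-count filter and were tested, and 4 did not. Of the tested, 32 fell in KO at an adjusted p under 0.05 (edgeR's quasi-likelihood F test, Benjamini-Hochberg adjustment over all transcripts tested), which is 26.4%, and 2 rose. Over all 14131 transcripts tested, 6.02% were called lower and 9.16% higher. The median log2 fold change of KO over WT was -0.40 (quartiles -0.91 and -0.08), against 0.02 over all transcripts tested, and 97 values were below 0 and 24 above. KO libraries lay wholly under WT libraries for 46 of the 121 (38.0%; 15.9% of all tested) and wholly above for 7 (5.79%; 16.3% of all tested). The 32 counted reads more than once. All 12 transcripts of the largest block were among them, and with each block counted once, 18 of 96 fell (18.75%) and 2 rose.

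The count of mRNA calls depended on single libraries. It was 21 when WT library 1 was left out (7.14% of all transcripts tested were then called), 21 when WT library 2 was (6.63%) and 61 when WT library 3 was (28.1%). All 12 transcripts of the largest block, which share reads, were among the calls in each of these fits. The count was 16 when KO library 2 was left out (6.07%) and 3 when KO library 3 was (4.29%), and those 3 were the transcripts of lengths 8023, 7487 and 7143. With WT library 3 as the only WT library, 124 were tested, the median was -0.02, 64 values were below 0, 3 transcripts were called lower (the same lengths 8023, 7487 and 7143) and 4 higher (lengths 6289, 3739, 4119 and 5184). In that fit the lone WT library is assumed to vary like the KO libraries, and 0.687% of the 17168 transcripts tested were called lower and 1.22% higher. Lengths 8023 and 7487 share reads, so the 3 called lower there are not independent. The lone WT library held only 14, 7 and 11 mRNA counts for lengths 3739, 4119 and 5184. With the smooth trend of fold change on listed length taken out, the median of the long transcripts turned to 0.11, with 18 called lower and 19 higher, beside 6.7% and 8.43% of all transcripts tested. Most of the 18 called lower were rows of the largest block, which share reads, so the 2 counts do not show a balance.

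The transcripts that fell most firmly were the pair of lengths 8023 and 7143. The 8023 transcript (uc029rlw.1) had 61.6, 57.6 and 61.2 CPM (counts per library total, each total scaled by TMM) in the WT mRNA libraries, against 15.1, 8.89 and 6.99 in KO. The WT libraries were nearly level and all KO libraries lay far under them (log2 fold change -2.54, SE 0.37; adjusted p 0.000155 by edgeR). Its neighbour in the tables, of length 7487, shares reads with it. The mRNA counts of the 8023 transcript were low, 73, 35 and 36 in WT against 8, 5 and 4 in KO. Its footprint counts were 4, 17 and 9 in WT against 7, 2 and 4 in KO. The 8023 transcript therefore reached the count minimum of each assay through the WT libraries, where it was higher. Its footprints, 9.64, 22.4 and 2.46 CPM in WT against 1.83, 0.943 and 2.31 in KO, rested on at most 17 counts in a library and were not tested. The 7143 transcript (uc008jqv.1) had 351, 275 and 277 CPM in WT against 87.0, 85.3 and 78.6 in KO. Its KO libraries agreed closely and did not approach the WT libraries (log2 fold change -1.85, SE 0.27; adjusted p 0.000143 by edgeR). Both calls were kept in all 12 alternative analyses run on them, including the one without WT mRNA libraries 1 and 2.

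The other named transcripts that fell did so by about 1 to 1.4 on the log2 scale. Length 3292 had 171, 159.7 and 76.5 CPM in WT against 73.8, 40.9 and 45.4 in KO (log2 fold change -1.36, SE 0.31; adjusted p 0.00537 by edgeR). WT library 3 was close to the highest KO library, and the call was kept in 9 of 12 alternatives. The transcript of length 4534, taken to stand for the block of 12, had 318, 277 and 179 CPM in WT against 114, 126 and 99.6 in KO (log2 fold change -1.19, SE 0.27; adjusted p 0.00603 by edgeR), kept in 10 of 12. Length 3262 had 392, 403 and 262 CPM in WT against 161, 139 and 159 in KO (log2 fold change -1.21, SE 0.29; adjusted p 0.00761 by edgeR), kept in 9 of 12. In each of these WT library 3 was the lowest WT library and still above every KO library. The transcripts of lengths 4297, 3422 and 3094 fell by 1.17, 1.01 and 0.98 on the log2 scale, and their calls were kept in 8, 7 and 6 of 12 alternatives.

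The 2 transcripts whose mRNA rose were of lengths 6289 and 3739. The former (uc007rhn.1) had 352, 311 and 229.6 CPM in WT against 602, 799.8 and 746 in KO. All KO libraries lay above all WT libraries (log2 fold change 1.26, SE 0.35; adjusted p 0.0168 by edgeR), and the call was kept in 9 of 12 alternatives. The latter (uc009qms.1) had 38.8, 44.4 and 23.8 CPM in WT against 60.5, 78.2 and 80.3 in KO. It rose by 1.02 on the log2 scale (SE 0.29, edgeR adjusted p 0.0198), kept in 8 of 12. The next smallest p in this direction belonged to length 4119, which did not pass: 55.7, 46.1 and 11.9 CPM in WT against 41.6, 92.4 and 73.4 in KO, with groups that overlapped (log2 fold change 0.80, edgeR adjusted p 0.144).

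**Figure D2:**
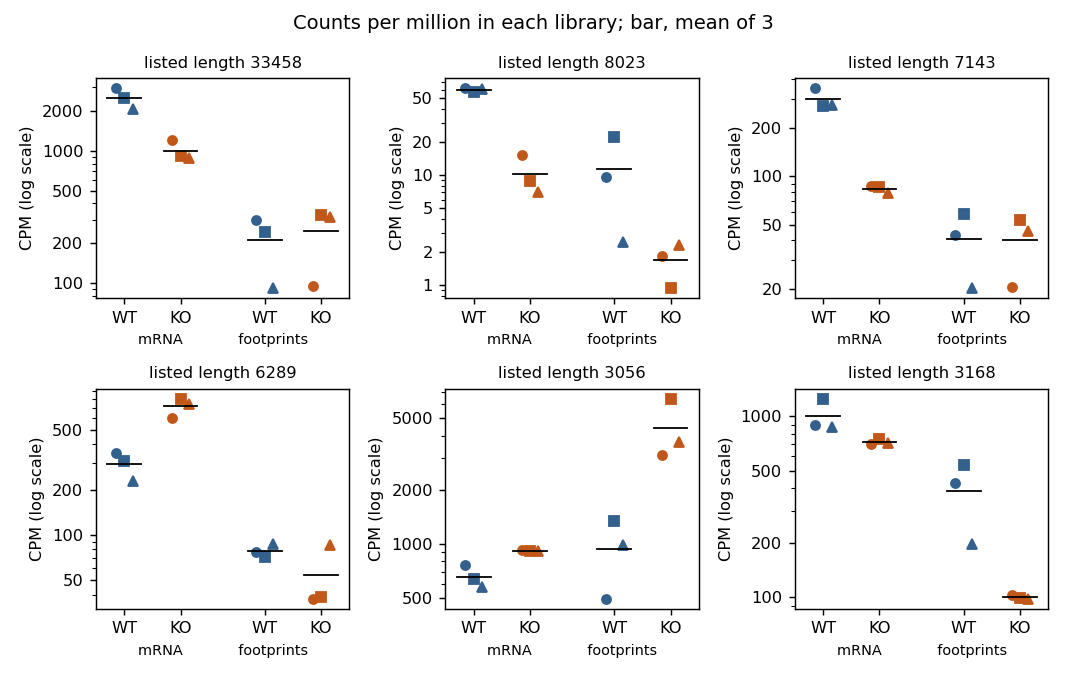
CPM on a log scale (vertical axis) in each library for 6 long transcripts, by assay and genotype. Points are libraries (circle, square and triangle for library 1, 2 and 3) and bars are means of 3. In mRNA, KO lies under WT for lengths 8023 and 7143 and above WT for length 6289, while the footprint points of lengths 33458 and 7143 overlap between genotypes.

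The longest transcript, of listed length 33458, was the most abundant of the 125 in mRNA. It had 2949, 2502 and 2058 CPM in WT against 1201, 914 and 873 in KO, means of 2503 ± 445 and 996 ± 179 (SD, n = 3). All KO libraries lay well under all WT libraries, WT library 3 included. The log2 fold change of -1.33 (SE 0.49) nevertheless missed the threshold in edgeR's quasi-likelihood test, with an adjusted p of 0.0643. It passed with the DESeq2 test (-1.35, adjusted p 0.000113), with no low-count filter (-1.43, edgeR adjusted p 0.0275) and without WT library 3 (-1.49, edgeR adjusted p 5.05e-05). With WT library 3 as the only WT library the log2 fold change was -1.08 (edgeR adjusted p 0.123). Over the 12 alternatives it ran from -1.49 to -0.47, always below 0, with adjusted p from 5.05e-05 to 0.375.

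Footprints on the same transcript did not separate the genotypes. They were 299, 243 and 92.0 CPM in WT against 95.6, 328 and 317 in KO, so that WT library 3 and KO library 1 were low and the other 4 libraries were high. The log2 fold change was 0.24 with an SE of 0.59 (adjusted p 0.851 by edgeR), and -0.09 without WT library 3. Footprint CPM over mRNA CPM, from the group means, was 0.0844 in WT and 0.248 in KO. The ratio's log2 fold change of 1.79 (SE 0.76) had an edgeR adjusted p of 0.435, and ran from 1.05 to 2.32 over 14 alternatives, none past the threshold. A second row, of length 26877, lies beside it in the tables and shares its reads. It had 2415, 1951 and 1659 mRNA CPM in WT against 1006, 773 and 664 in KO, and is no independent measurement.

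Among the other named transcripts of greatest length, mRNA did not move one way. Length 7708 had 513, 512 and 361 CPM in WT against 356, 485 and 409 in KO, and its groups overlapped (log2 fold change -0.15, SE 0.33; adjusted p 0.802 by edgeR). Length 7346 had 916, 988 and 580.1 CPM in WT against 615, 802 and 679 in KO (log2 fold change -0.25, SE 0.38; adjusted p 0.714 by edgeR). Length 6865 had 339, 397 and 211 CPM in WT against 335, 558 and 402 in KO (log2 fold change 0.45, SE 0.33; adjusted p 0.386 by edgeR). In all 3 the groups overlapped and WT library 3 was the lowest WT library. The small negative values of lengths 7708 and 7346 turned positive, at 0.17 and 0.23, without WT mRNA libraries 1 and 2.

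In footprints, 111 of the 125 passed the low-count filter and 14 did not. None was called in either direction by edgeR's quasi-likelihood F test at an adjusted p under 0.05, with a smallest adjusted p of 0.0513. Over all 17236 transcripts tested, 0.685% were called higher and 0.435% lower. At an unadjusted p under 0.05, 16 long transcripts were higher and 28 lower, 39.6% of those tested against 21.8% of all transcripts tested. These footprint counts and those below take each transcript singly, including transcripts that share reads. Length 4534, which stands for the largest block of 12, was lower (log2 fold change -1.16, unadjusted p 0.0273 by edgeR). The DESeq2 test called 10 higher and 4 lower (1.79% and 2.33% of all tested). The median log2 fold change was -0.27 (quartiles -1.15 and 0.33), against -0.02 over all tested, with 43 values above 0 and 68 below. KO libraries lay wholly above WT libraries for 11 (9.91%; 14.5% of all tested) and wholly under for 1 (0.901%; 12% of all tested).

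These footprint values turned on the WT libraries. Without WT library 1 the median became 0.15, with 4 called higher and 1 lower, beside 1.41% and 1.23% of all tested. Without WT library 3 it became -0.77, with 5 called higher and 40 lower, beside 5.53% and 10.4% of all transcripts tested in that fit. With no low-count filter 10 were called, 4 higher and 6 lower, beside 1.5% and 1.49%. With the trend on listed length taken out the median was 0.09, with 17 called higher and 4 lower, beside 4.29% and 4.72%.

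The smallest footprint p-values toward higher KO belonged to transcripts with few WT footprints. The transcript of length 4590 had 2.41, 5.28 and 5.46 CPM in WT against 11.5, 34.4 and 20.2 in KO (log2 fold change 2.13, SE 0.51; adjusted p 0.0513 by edgeR). These WT values rest on 1, 4 and 20 counts, so the transcript reached the minimum of 30 footprint counts through the KO libraries. Length 4119 had 7.23, 3.96 and 3.27 CPM in WT against 10.2, 30.2 and 17.3 in KO (log2 fold change 2.22, SE 0.54; adjusted p 0.0523 by edgeR). Its WT values rest on 3, 3 and 12 counts, and it too reached the minimum through KO. Length 4001 had 16.9, 31.7 and 13.9 CPM in WT against 43.4, 129.7 and 84.4 in KO (log2 fold change 2.07, SE 0.50; adjusted p 0.0523 by edgeR). In all 3 every KO library lay above every WT library, and KO library 2 was the highest. Their mRNA was not called: in KO, for length 4590, it was 17.0, 32.0 and 26.2 CPM against 32.1, 36.2 and 17.0 in WT. Each of the 3 passed the threshold in 5 of 11 alternatives.

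Toward lower KO, the smallest p-values belonged to lengths 3168, 3634 and 5579. Length 3168 had 429, 536 and 198 CPM in WT against 102, 99.5 and 98.2 in KO (log2 fold change -1.95, SE 0.52; adjusted p 0.0635 by edgeR). Its KO libraries were nearly level and all under WT, and it was the 1 tested transcript of the set whose footprint libraries were wholly lower in KO. Length 3634 had 96.4, 80.5 and 22.7 CPM in WT against 15.9, 13.2 and 23.1 in KO (log2 fold change -1.87, SE 0.50; adjusted p 0.0635 by edgeR). Length 5579 had 209.8, 136 and 28.1 CPM in WT against 18.0, 27.8 and 40.5 in KO (log2 fold change -2.08, SE 0.61; adjusted p 0.0788 by edgeR). In the latter pair WT library 3 lay among the KO libraries. All 3 passed in 4 of 11 alternatives, and in mRNA their KO libraries lay wholly under WT, with length 5579 among those called lower.

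The 2 assays were set side by side for the 110 long transcripts tested in both. Of these, 60 were below 0 in both assays, 14 above 0 in both, 29 below 0 in mRNA and above 0 in footprints, and 7 the reverse. The sign was the same for 67.3%, against 65.0% of all 12694 transcripts tested in both. Pearson's r of the log2 fold changes across transcripts was 0.51, against 0.47 over all. These are descriptions, since transcripts that share reads are not replicates. Of the 32 transcripts whose mRNA fell, 28 were tested in footprints, with 23 below 0 and 5 above, and 12 of the 28 are the largest block, which shares reads.

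**Figure D3:**
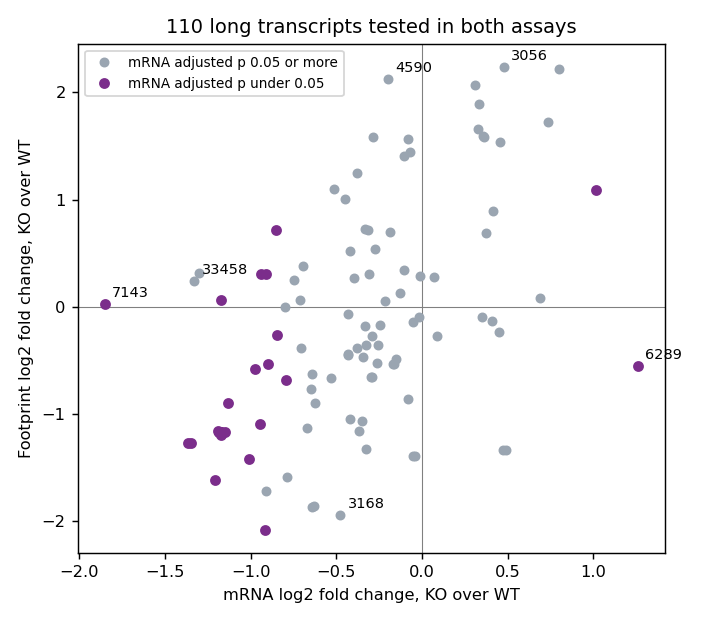
Log2 fold change of KO over WT in mRNA (horizontal axis) and in footprints (vertical axis) for the 110 long transcripts tested in both assays. Each point is 1 transcript, purple where its mRNA passed an adjusted p of 0.05, and numbers are listed lengths. Most purple points lie at lower left, and length 7143 lies at -1.85 in mRNA and 0.02 in footprints.

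The ratio of footprints to mRNA could be tested for all 125, and none was called. Among all transcripts 0 of 25927 transcripts were called (0%) by edgeR's quasi-likelihood F test of the assay by genotype interaction, and the smallest adjusted p among long transcripts was 0.24. At an unadjusted p under 0.05, 26 long transcripts were higher in KO and 3 lower, 23.2% against 9.9% of all tested. The DESeq2 test called 3 higher (lengths 3345, 3056 and 7143) and none lower, beside 0.158% and 0.0656% of all tested. The median log2 fold change was 0.25 (quartiles -0.14 and 1.05), against -0.07 over all, with 86 values above 0 and 39 below. Without WT mRNA libraries 1 and 2 the median turned to -0.25, with 77 values below 0, none called and a smallest adjusted p of 0.867. It was -0.07 without WT footprint library 3, 0.64 without WT footprint library 1 and -0.08 with the trend on listed length taken out. With the library number as a replicate block some long transcripts were called, as given at the end, but the labels do not state such pairing.

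The transcript of length 7143 had lower mRNA in KO and footprints at a similar mean in both genotypes. Its mRNA fell as given above, while its footprints were 43.4, 58.1 and 20.2 CPM in WT against 20.4, 53.8 and 45.7 in KO. The footprint groups overlapped throughout. Its ratio of mean CPM was 0.135 in WT and 0.477 in KO (log2 fold change 2.07, SE 0.56; adjusted p 0.248 by edgeR). For length 4590 the ratio was 0.154 in WT and 0.879 in KO (log2 fold change 2.39, SE 0.64; adjusted p 0.24 by edgeR), and there the footprints and not the mRNA differed in mean. For length 4001 it was 0.360 in WT and 1.19 in KO (log2 fold change 1.93, SE 0.57; adjusted p 0.275 by edgeR).

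Toward a lower ratio in KO, 3 named transcripts are given, none of which passed. Length 6289, whose mRNA rose, had 77.2, 71.3 and 86.8 footprint CPM in WT against 37.6, 38.7 and 85.5 in KO. Its KO library 3 reached the WT level and the other KO libraries did not. The ratio was 0.263 in WT and 0.0754 in KO (log2 fold change -1.67, SE 0.59; adjusted p 0.344 by edgeR). Length 5059 had a ratio of 0.528 in WT and 0.130 in KO (log2 fold change -1.62, SE 0.60; adjusted p 0.369 by edgeR), with 57.9, 22.4 and 13.9 footprint CPM in WT against 6.79, 12.3 and 14.4 in KO. Length 3168 had a ratio of 0.386 in WT and 0.139 in KO (log2 fold change -1.26, SE 0.63; adjusted p 0.52 by edgeR).

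Levels were compared between long transcripts per 1000 units of listed length. Mean mRNA ran from 1.88 to 272 CPM per 1000 units with a median of 40.9, and mean footprints from 0.575 to 874 with a median of 10.3. In mRNA the highest was length 3168 at 272, followed by lengths 3056 at 257, 3275 at 169, 5647 at 160.1, 4581 at 130.3 and 5319 at 125. The longest transcript stood at 52.3. Mean mRNA CPM in KO against WT was 915 ± 9.43 against 656 ± 95.2 for length 3056, 693 ± 54.4 against 415 ± 28.4 for length 3275 and 1034 ± 232 against 775 ± 112 for length 5647 (SD, n = 3). None of these 3 passed in mRNA by edgeR (log2 fold changes 0.48, 0.74 and 0.42, adjusted p 0.415, 0.145 and 0.515). KO lay wholly above WT for lengths 3056 and 3275. Length 3275 passed in 3 of 12 alternatives, among them the DESeq2 test (log2 fold change 0.72, adjusted p 0.0471). Lengths 3056 and 5647 each passed in 1 of 12.

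In footprints the same 3 transcripts stood apart from the rest. Length 3056 led at 874 CPM per 1000 units, then lengths 3275 at 572 and 5647 at 314, and the next, length 4536, was at 126. Length 3056 had 494, 1330.5 and 978 footprint CPM in WT against 3134, 6388 and 3705 in KO (log2 fold change 2.24, SE 0.75; adjusted p 0.109 by edgeR). Length 3275 had 547, 1202 and 865 in WT against 1964, 4138 and 2524 in KO (log2 fold change 1.72, SE 0.69; adjusted p 0.166 by edgeR). For both, every KO library lay above every WT library, although neither passed in edgeR, and both were called higher by the DESeq2 test. Length 5647 had 1203, 1452 and 1065 in WT against 1041, 3300.1 and 2569.9 in KO, and its groups overlapped (log2 fold change 0.89, SE 0.68; adjusted p 0.468 by edgeR). The next 3, of lengths 4536, 4374 and 3345, had log2 fold changes of 1.54, 1.57 and 1.10 with edgeR adjusted p of 0.172, 0.152 and 0.224.

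Most long transcripts had a lower level in footprints than in mRNA, each on its own CPM scale, so that the ratio is relative to other transcripts and is not a number of ribosomes per mRNA. The ratio of mean CPM over all libraries had a median of 0.226, and ran from 0.0549 to 3.4, with 115 transcripts under 1 and 10 at 1 or more. The highest belonged to lengths 3056 (3.4), 3275 (3.38), 3558 (2.03), 5647 (1.96), 3109 (1.8) and 4374 (1.44). Among the lengths just listed the order differed by genotype. In WT the highest ratios were 2.10 for length 3275, 1.6 for 5647 and 1.42 for 3056. In KO they were 4.82 for 3056, 4.15 for 3275, 2.85 for 3558, 2.40 for 3109 and 2.23 for 5647. The lowest belonged to lengths 5184 (0.0549), 4059 (0.0748) and 4542 (0.0790). For the first of these the footprints rest on 35 counts over 6 libraries. The longest transcript was toward the low end at 0.131.

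**Figure D4:**
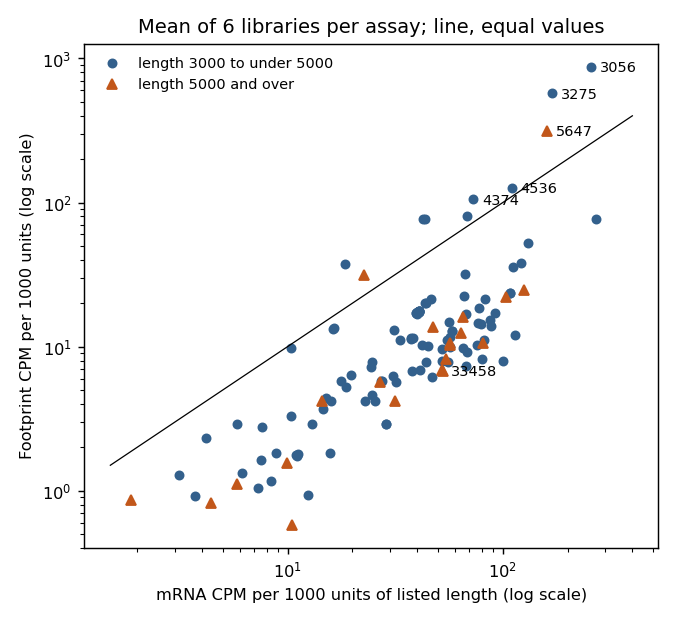
Mean mRNA CPM (horizontal axis) and mean footprint CPM (vertical axis) per 1000 units of listed length, both on log scales, over 6 libraries each, for the 125 long transcripts. The line marks equal values and numbers are listed lengths. Lengths 3056, 3275 and 5647 lie highest, and 115 transcripts lie under the line.

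Values of the long transcripts were set beside those of shorter transcripts with at least 30 counts in each assay, by class of listed length. The median ratio of footprint CPM to mRNA CPM was 0.528 for lengths under 1000, 0.321 from 1000, 0.274 from 2000, 0.252 from 3000 and 0.190 from 5000. The median mRNA log2 fold change was 0.11 for the 11021 under 1000, -0.30 for the 2431 from 1000, -0.43 for the 366 from 2000, -0.43 for the 101 from 3000 and -0.19 for the 20 from 5000. The share called lower in mRNA was 3.83%, 12.9%, 19.1%, 27.7% and 20% in the same order. These shares count transcripts that share reads more than once. The 12 transcripts of the largest block lie in the class from 3000 and were all called lower. Lengths 8023 and 7487, which share reads, lie in the class of 20 from 5000. Both were called lower, with all libraries and without WT mRNA libraries 1 and 2. With each block counted once, 18.75% of the long transcripts tested fell. Without WT mRNA libraries 1 and 2 the medians were 0.05, -0.07, -0.14, -0.06 and 0.17, and the shares called lower 0.495%, 1.15%, 1.35%, 0% and 15%. From 3000 to under 5000 the share called lower was 16.7% when WT library 1 alone was left out, 16.5% when WT library 2 was and 49.5% when WT library 3 was. All 12 transcripts of the largest block were among the calls in each of these fits. The median log2 fold change of the ratio went from -0.12 through 0.17, 0.27 and 0.25 to 0.31 with all libraries, and from -0.04 through -0.11, -0.11 and -0.23 to -0.29 without those 2. Within the 125, listed length and fold change were nearly unrelated across transcripts, with Spearman's rho of -0.03 for mRNA, -0.08 for footprints and -0.09 for the ratio. The differences between length classes were not tested.

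**Figure D5:**
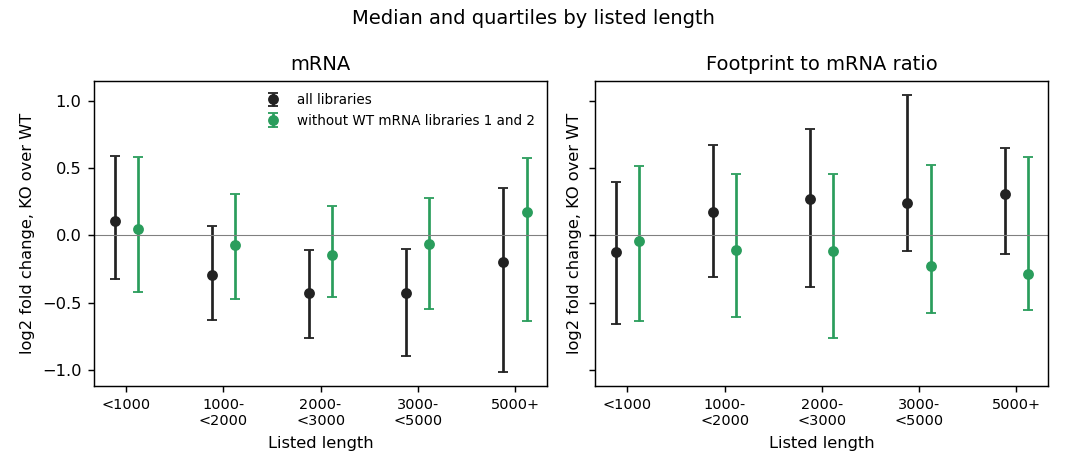
Median log2 fold change of KO over WT (points) with quartiles (bars) by class of listed length, for mRNA (left) and the footprint to mRNA ratio (right), with all libraries (black) and without WT mRNA libraries 1 and 2 (green). With all libraries the mRNA medians of the classes from 1000 up lie between -0.43 and -0.19, and without the 2 libraries between -0.14 and 0.17.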

How the data were processed

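Ribosome profiling and mRNA-seq libraries of newborn mouse eyes, 3 per genotype and assay, were analysed from the tables the authors deposited, which hold raw read counts per transcript, not normalized, and a second number without a stated unit, here the listed length. Per the labels' protocols, footprints came from RNase I digestion and ribosome pelleting, followed by linker ligation, and mRNA libraries from TruSeq. The submitters' processing notes name CASAVA 1.8, Bowtie2 2.3.4.2, TopHat2 2.0.9 and mm10. How reads were counted, on which strand, and how those matching several transcripts were treated is not given in the sources used here, so overlapping transcripts can share reads.

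The long transcripts, the naming rule and the tests were chosen with earlier results of these data known. Tests were fitted on all distinct transcripts with edgeR 4.0.16 (limma 3.58.1, R 4.3.3): quasi-likelihood F tests with TMM scaling and edgeR's low-count filter, apart for mRNA and footprints, and the interaction over 12 libraries for the ratio, for transcripts with at least 10 counts in each assay. P-values were adjusted by Benjamini-Hochberg over all transcripts tested, with a threshold of 0.05. SEs come from the fold change and the F statistic. CPM are scaled by TMM. Blocks join rows within 20 table rows whose log2 CPM (prior count 2) correlated over 0.95 across libraries. The length trend was a loess fit with span 0.5. DESeq2 1.42.0 served as an alternative. The fits were tested on simulated data with the same dispersion for all transcripts and no differences but depth between libraries of a group. The simulation therefore does not test the calls under the differences seen between the WT libraries.

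Named are, in each comparison and direction, the 8 transcripts with the smallest adjusted p past the threshold with groups that do not overlap (where fewer than 3 pass, the 3 smallest p), the 6 highest in mRNA and in footprints per length, the 6 highest and 3 lowest ratios and the 6 greatest lengths, with 1 per block. Gene lists and cell type markers planned by name were not used, because no table used here pairs the identifiers with genes, and for the same reason no sequence is shown. Library totals ran from 327847 to 5966639 counts, and the shallow footprint libraries limit precision. All replicate pairs differed beyond sampling noise.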

Additional observations from a re-analysis of the deposited data

How the results depend on the processing

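Calls of long transcripts, 34 in mRNA and 0 each in footprints and the ratio, and their medians of -0.40, -0.27 and 0.25 kept their direction with DESeq2 size factors. In mRNA, leaving out 1 library gave 3 to 61 calls and medians from -0.58 to -0.32, and leaving out WT libraries 1 and 2 gave 7 calls and a median of -0.025. Removing the length trend turned the medians to 0.11 (mRNA), 0.088 (footprints) and -0.083 (ratio). From a length of 2000 there were 114 mRNA and 4 footprint calls, from 5000 there were 5 mRNA calls, and with shared reads merged 20, beside 15.2% (mRNA) and 1.12% (footprints) of all transcripts tested. The longest transcript's mRNA value of -1.33 passed only with DESeq2 (-1.35), with no low-count filter (-1.43) and without WT library 3 (-1.49), and ran from -1.49 to -1.22 with 1 library left out. Footprint calls were 14 with DESeq2, 10 with no filter, 21 with the trend removed, 9 at an adjusted p under 0.10 (7.04% of all tested), and 0 to 45 with 1 library left out, where the median ran from -0.77 to 0.15. The longest transcript's footprint value ran from -0.091 (without WT library 3) to 0.66. Ratio calls were 3 with DESeq2 and 0 with 1 library number of a genotype left out in both assays. The ratio median turned to -0.25 without WT mRNA libraries 1 and 2 and to -0.072 without WT footprint library 3. The mRNA share difference of -1.24 percentage points became -0.41 from a length of 5000 and -0.25 without WT libraries 1 and 2, and the footprint difference of 0.55 became -0.089 without the 3 transcripts with most footprints.

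Single transcripts that changed sign, none of which was called: with the trend removed and then without WT mRNA libraries 1 and 2, mRNA became 0.49 and 0.17 for length 7708, 0.40 and 0.23 for 7346, 0.42 and 0.060 for 4581, and 0.38 and 0.32 for 5319, and the ratio became -0.23 and -0.66 for 5184 and -0.11 and -0.13 for 4059. For 4542 the ratio value of -0.40 turned to 0.066 without WT library 1 of both assays and to 0.16 without WT footprint library 1, and it kept its sign, at -0.75, without WT library 3 of both. The cause was not tested.

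With the library number as a replicate block there were 32 mRNA calls, 0 footprint calls and 11 ratio calls (8 higher, 3 lower), beside 15%, 0% and 1.24% of all transcripts tested in the blocked fits. The labels do not say that equal numbers pair libraries, so no pairing was used. Deviations of same-numbered libraries correlated at 0.42, 0.07 and 0.57 between mRNA and footprints in WT, and at 0.098, 0.094 and 0.041 in KO. Between genotypes the values were -0.40, 0.12 and -0.28 in footprints and -0.0022, 0.039 and 0.11 in mRNA. The values between assays were all positive, so they do not exclude pairing for the ratio.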
